A study of Mus musculus with 6 samples.

Results

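The secreted and membrane-bound matrix proteases of the Mmp and Adamts families, the protease-free Adamts-like (Adamtsl) proteins and the Timp inhibitors were examined. The cells were cultured satellite cells (SCs), the muscle stem cells, from mice with and without induced deletion of the NF-YA gene. Genes were taken by symbol, and 51 genes of the 35976 in the files belonged to the families. Of these, 40 had more than 10 counts in at least 2 libraries and were tested with the 17348 genes that met the same filter: 16 Mmp, 16 Adamts, 5 Adamtsl and 3 Timp genes. The other 11 were Adamts16, Adamts18, Adamts19, Mmp1a, Mmp1b, Mmp7, Mmp20, Mmp21, Mmp25, Mmp27 and Timp4, and none of them had more than 13 expected counts in any library. RNA came from SC cultures of NF-YAcKO and NF-YAfl/fl mice, 3 libraries each, and how many mice went into a library is not given in the sources used here. The comparison asks what deletion of the gene for NF-YA, the regulatory subunit of the CCAAT-binding factor NF-Y, does to SC transcripts. All mice were 5 to 7 weeks old, carried floxed NF-YA alleles and received tamoxifen (20 mg/ml). NF-YAcKO mice also carried a tamoxifen-inducible Cre recombinase driven from the Pax7 locus, so that deletion was aimed at Pax7-expressing cells, and NF-YAfl/fl mice had no Cre. SCs were enriched from dissociated muscle by magnetic depletion with antibodies to CD31 (endothelial cells), CD45 and CD11b (leukocytes, macrophages and neutrophils among them) and Sca1 (most fibro-adipogenic progenitors), and were then grown in culture.

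Metalloproteases of these families need a zinc ion to cut proteins of the extracellular matrix. Mmp proteins are made as inactive precursors, and they include collagenases, gelatinases, stromelysins and membrane-anchored forms, while Adamts proteases trim proteoglycans such as versican and aggrecan or cut the ends off procollagen. Timp proteins block the active site of these enzymes, and the balance of both is known to govern how SCs migrate through the muscle basement membrane and how a muscle remodels its matrix after injury.

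The libraries held between 26936230 and 41118984 expected counts, and 3 counts corresponded to 0.0705 to 0.115 CPM (counts scaled to library size with edgeR's TMM factors). The Nfya total did not fall (27.5 ± 0.874 CPM in NF-YAcKO, 28.7 ± 7.20 in NF-YAfl/fl, SD, n = 3 each, FDR = 0.81), but the entry that the authors added for the deleted allele took 22.3% to 34.2% of the Nfya counts in the NF-YAcKO libraries and 0 counts in the NF-YAfl/fl libraries. Xist was at 836 to 852 CPM in the 3 NF-YAcKO libraries and at 0.306 to 0.475 in the 3 NF-YAfl/fl ones, and the Y-linked genes Ddx3y, Kdm5d, Eif2s3y and Uty were at 37.3 to 88.6 CPM in NF-YAfl/fl only, with at most 0.141 CPM in NF-YAcKO. The NF-YAcKO libraries thus had the pattern of female cells and the NF-YAfl/fl libraries that of male cells. Genotype and sex cannot be told apart for any gene compared here, whether autosomal or, like Timp1, X-linked. NF-YAfl/fl replicate 3 stood apart: for 32 of the 40 genes it was the lowest of its genotype, and the median gene was there at 0.531 times the mean of the other 2 libraries.

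Of the 40 genes, 4 were called higher and 6 lower in NF-YAcKO (edgeR's quasi-likelihood test with FDR under 0.01 and a change past 1 on the log2 scale). Among all genes tested, 4.65% were called higher and 7.67% lower. The log2 fold changes had a median of -0.19 for the 40 genes and of -0.02 for all genes. In 9 genes every NF-YAcKO library was above every NF-YAfl/fl library, against 29.1% of all genes, and in 14 genes every one was below, against 26.2%. Both genotypes overlapped in the other 17. By family, 3 of 16 Mmp genes were called higher and 2 lower, 1 of 16 Adamts genes higher and 2 lower, and 2 of 5 Adamtsl genes lower with none higher. With no limit on the fold, 11 of the 40 had an FDR under 0.01, against 20.3% of all genes. Without NF-YAfl/fl replicate 3 the counts were 6 higher and 11 lower. Over all 17170 genes tested in that fit, 854 were called higher and 1684 lower, against 806 and 1331 with all libraries.

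**Figure D1:**
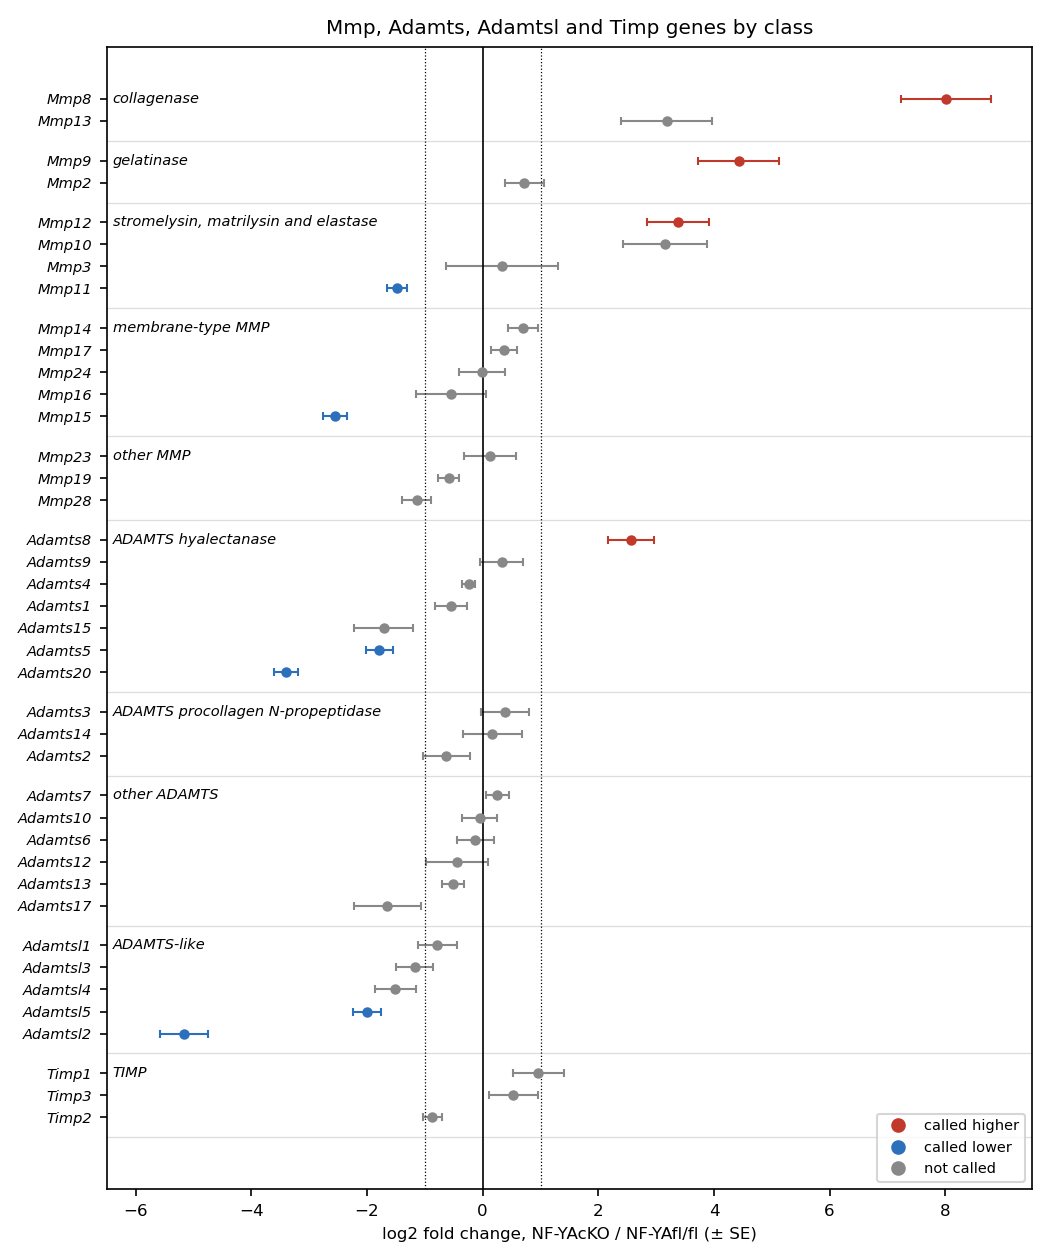
Log2 fold change of the 40 genes, NF-YAcKO over NF-YAfl/fl, with its standard error (bars), grouped by class and ordered within each class. Dotted lines mark -1 and 1, red points are the 4 genes called higher, blue points the 6 called lower and grey points the rest, and Mmp8 lies farthest to the right and Adamtsl2 farthest to the left.

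Levels of different genes were compared as TPM, which corrects for transcript length. Timp1, an inhibitor of most secreted Mmp proteins, was the most abundant of the 40 in both genotypes (742 ± 174 TPM in NF-YAcKO and 434 ± 308 in NF-YAfl/fl, SD, n = 3). It was followed in NF-YAcKO by Mmp14 (101 ± 18.7), Timp3 (75.9 ± 28.5), Timp2 (55.6 ± 6.37) and Mmp2 (26.9 ± 2.60). The order in NF-YAfl/fl was Timp2 (112 ± 46.7), Mmp14 (69.0 ± 35.9), Timp3 (57.1 ± 32.3) and Adamts1 (24.6 ± 11.3). Neighbours in this order overlapped over the libraries in NF-YAfl/fl, and in NF-YAcKO all did but Timp1 with Mmp14 and Timp2 with Mmp2. Timp genes together held 74.1% to 76.7% of the summed TPM of the 40 genes in NF-YAcKO and 54.2% to 71.0% in NF-YAfl/fl, where replicate 3 gave the lowest share. The summed Timp TPM was 4.29 to 4.73 times the summed Mmp TPM in NF-YAcKO and 2.53 to 4.22 times in NF-YAfl/fl. Both measures rest on Timp1, which alone held 63.0% to 65.0% of the summed TPM in NF-YAcKO and 31.5% to 54.2% in NF-YAfl/fl. Without Timp1, both were lower in every NF-YAcKO library than in every NF-YAfl/fl library.

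The neutrophil collagenase Mmp8, which cuts fibrillar collagen, showed the widest difference. It had 340, 254 and 139 counts (10.8, 6.13 and 3.27 CPM) in NF-YAcKO replicates 1, 2 and 3 and 1, 1 and 0 counts in the NF-YAfl/fl libraries. Every NF-YAcKO library was thus far above every NF-YAfl/fl library, in which Mmp8 was at the limit of detection. From the summed counts, 733 against 2, the level was 284 times higher in NF-YAcKO (95% exact interval 78.3 to 2347, for counting error only), and the fitted log2 fold change, which rests on those few counts, had an FDR of 0.000709.

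Mmp9, a gelatinase that cuts denatured collagen and basement membrane collagen, was at 15.6, 10.5 and 6.56 CPM in the NF-YAcKO libraries and at 0.459, 0.952 and 0.0679 CPM in the NF-YAfl/fl ones. Both genotypes were well separated, and NF-YAfl/fl replicate 3 was the lowest, with 2 counts. The log2 fold change was 4.42 ± 0.70 (SE) with FDR = 0.00374. Mmp12, the macrophage elastase, was at 22.1, 19.8 and 9.21 CPM in NF-YAcKO and at 2.18, 2.11 and 0.611 CPM in NF-YAfl/fl. It was also higher in every NF-YAcKO library, by a log2 fold change of 3.38 ± 0.54 (FDR = 0.00372). The calls of Mmp9 and Mmp12 were each lost without NF-YAcKO replicate 1 or 2 or NF-YAfl/fl replicate 1, and that of Mmp9 also without NF-YAcKO replicate 3, with FDR between 0.0114 and 0.0219.

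Most markers of macrophages were also higher in NF-YAcKO. Of 13 macrophage markers tested (of 14 listed), 11 were called higher in NF-YAcKO, among them Adgre1 (F4/80), Csf1r and Lyz2, and 12 did not overlap. Their summed TPM was 310, 287 and 162 in NF-YAcKO replicates 1, 2 and 3 and 10.7, 19.1 and 4.39 in NF-YAfl/fl. Lyz2 alone made up 124 to 244 TPM of the sum in NF-YAcKO and 2.05 to 9.66 in NF-YAfl/fl, and without it the sum was 37.5 to 65.8 against 2.34 to 9.44. NF-YAcKO replicate 1 was the highest and replicate 3 the lowest of the genotype for this sum and for Mmp8, Mmp9, Mmp12, Mmp10 and Mmp13 alike. That order is not particular to these genes. It also held for Mmp3 and Adamts14, which overlapped between genotypes, and for Timp2, which was lower in NF-YAcKO (189, 176 and 175 CPM in replicates 1, 2 and 3). Of 9 neutrophil markers, 3 were tested and 2 called higher (S100a8 and Cxcr2), and the other 6, which include Ly6g, Elane and Mpo, had at most 22 counts. The summed TPM of the 9 was 19.0 to 36.5 in NF-YAcKO and 4.65 to 7.19 in NF-YAfl/fl. Cxcr2 alone made up 9.36 to 13.5 TPM of the sum in NF-YAcKO and 4.46 to 6.99 in NF-YAfl/fl, where it was nearly all of the sum. S100a8 was at 7.90 to 18.0 TPM in NF-YAcKO and at most 0.20 in NF-YAfl/fl. Both cell types carry CD45 and CD11b, which the depletion targeted, while Ptprc (CD45) and Itgam (CD11b) were among the markers called higher. The part of macrophages or neutrophils in the Mmp levels was not tested, and in RNA from whole cultures a change in the number of cells of a type and a change of RNA per cell cannot be told apart.

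Adamts8, a secreted protease known to cut aggrecan, was the only Adamts gene called higher. It was at 1.43, 2.34 and 1.93 CPM in NF-YAcKO and 0.153, 0.446 and 0.339 CPM in NF-YAfl/fl, from 45 to 97 and 4 to 15 counts. The libraries of both genotypes did not overlap, and replicate 2 was the highest in NF-YAcKO. The log2 fold change was 2.57 ± 0.40 (FDR = 0.00366), and the call was lost when any library other than NF-YAfl/fl replicate 2 or 3 was left out (FDR 0.0110 to 0.0221). Its exons share 489 bases with the antisense gene Gm29724, and whether the counting used strand is not given in the sources used here.

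**Figure D2:**
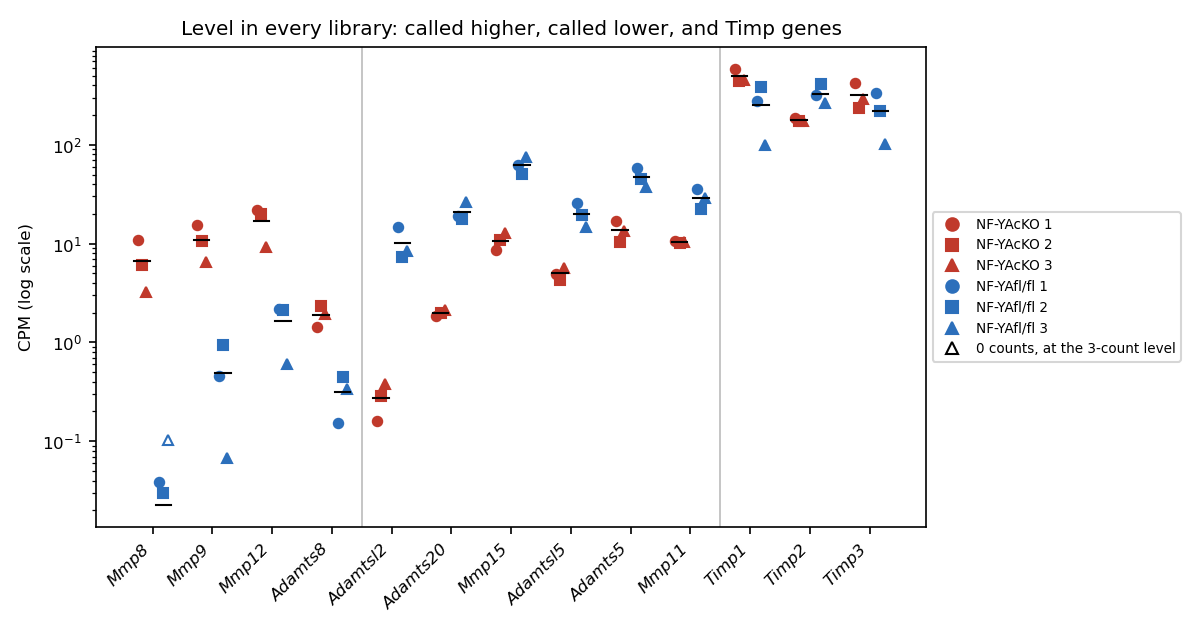
CPM (log axis) of the 4 genes called higher, the 6 called lower and the 3 tested Timp genes in each of the 6 libraries. Red is NF-YAcKO, blue is NF-YAfl/fl, shapes are replicates, black bars are means, and an open symbol is a library with 0 counts, drawn at the level of 3 counts (0.102 CPM for Mmp8 in NF-YAfl/fl replicate 3). The 10 called genes do not overlap between genotypes, and NF-YAfl/fl replicate 3 is the lowest library for Mmp9, Mmp12, Timp1 and Timp3.

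Mmp8 and Mmp12 belong to a cluster of Mmp genes on chromosome 9. In GRCm38 (mm10) 10 family genes lay within 427 kb, from 7272514 to 7699585, in the order Mmp13, Mmp12, Mmp1b, Mmp3, Mmp1a, Mmp10, Mmp8, Mmp27, Mmp20 and Mmp7, all on the plus strand except Mmp1b. Of these, 5 were tested. Mmp13, the main collagenase of rodents, was at 16.5, 6.76 and 4.02 CPM in NF-YAcKO and 1.22, 1.58 and 0.170 in NF-YAfl/fl. The libraries did not overlap, but at FDR = 0.0194 the log2 fold change of 3.18 ± 0.79 missed the threshold, which it passed with DESeq2 (FDR = 7.6e-05). Mmp10 (stromelysin 2, a protease of broad range) was at 6.57, 5.43 and 2.73 CPM in NF-YAcKO and 0.497, 1.04 and 0.0679 in NF-YAfl/fl. It did not overlap either, with a log2 fold change of 3.16 ± 0.73 and FDR = 0.0145 (6.3e-05 with DESeq2). Mmp3 (stromelysin 1), between Mmp12 and Mmp10, differed from both: it was at 7.40, 4.90 and 3.69 CPM in NF-YAcKO and at 6.46, 6.07 and 0.102 in NF-YAfl/fl. Mmp3 overlapped between genotypes (log2 fold change 0.34 ± 0.96, FDR = 0.80), and of its NF-YAfl/fl libraries replicate 3 held 3 counts where the others held 169 and 204. Mmp3 and Mmp10 had fractional counts in some libraries, where reads were split between similar transcripts, so their levels are estimates of that split. The neighbours under the count filter were nearly silent. Mmp1a and Mmp20 had 0 counts in all 6 libraries, Mmp1b and Mmp7 at most 4, and Mmp27, next to Mmp8, had 10, 9 and 6 counts in NF-YAcKO and 2, 2 and 0 in NF-YAfl/fl.

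**Figure D3:**
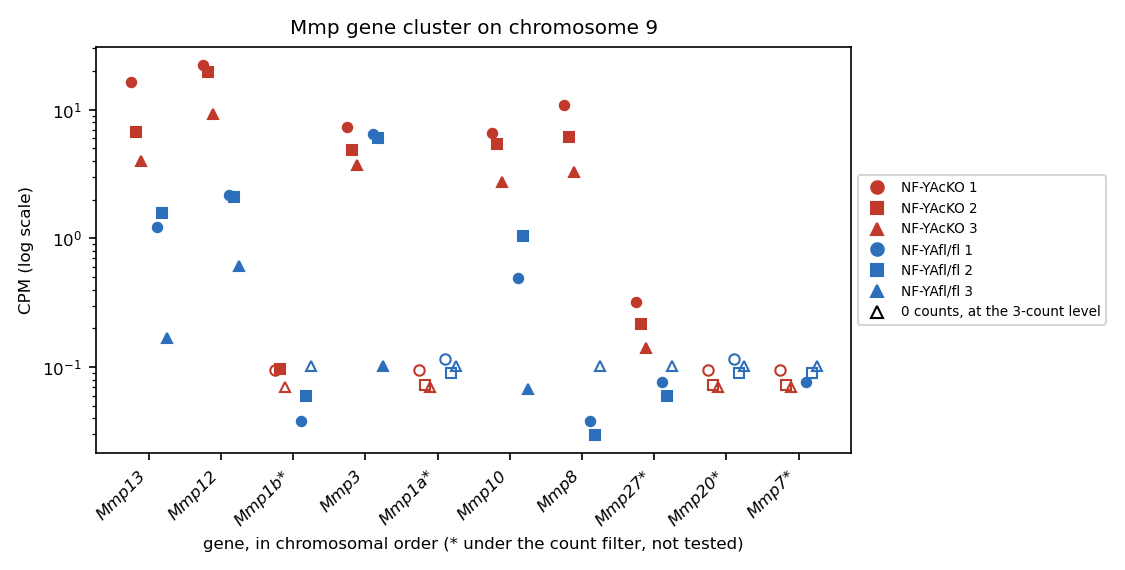
CPM (log axis) of the 10 Mmp genes of the chromosome 9 cluster in their order along the chromosome, in each library (colors and shapes by genotype and replicate; open symbols are 0 counts, drawn at the level of 3 counts; genes with an asterisk were under the count filter). Mmp13, Mmp12, Mmp10 and Mmp8 are above in all 3 NF-YAcKO libraries, while Mmp3 overlaps.

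The 100 bases before the start site of the tested cluster genes are shown because 4 of these 5 neighbours, all but Mmp8, carry a TGANTCA motif near a start, the kind of site that AP-1 factors bind and that Mmp promoters are known for. Sequences are from RefSeq (GRCm38.p6), read 5′ to 3′ on the plus strand, with the motif in capitals.
Mmp13, chr9:7272414-7272513: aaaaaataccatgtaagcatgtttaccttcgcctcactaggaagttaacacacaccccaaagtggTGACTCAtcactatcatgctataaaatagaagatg
Mmp12, first start, chr9:7344297-7344396: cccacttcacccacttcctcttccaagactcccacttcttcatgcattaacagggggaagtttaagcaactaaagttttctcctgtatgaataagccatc
Mmp12, second start, chr9:7347274-7347373: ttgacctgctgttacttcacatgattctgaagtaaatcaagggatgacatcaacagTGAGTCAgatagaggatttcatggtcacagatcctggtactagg
Mmp3, chr9:7445722-7445821: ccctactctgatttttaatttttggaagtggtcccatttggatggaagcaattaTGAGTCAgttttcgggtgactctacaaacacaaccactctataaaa
Mmp10, chr9:7502242-7502341: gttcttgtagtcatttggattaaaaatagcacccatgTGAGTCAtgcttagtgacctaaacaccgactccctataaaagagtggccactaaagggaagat
Mmp8, chr9:7558329-7558428: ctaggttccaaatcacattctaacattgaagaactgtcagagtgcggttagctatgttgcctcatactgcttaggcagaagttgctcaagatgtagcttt
The motif reads the same on both strands and begins at -35 from the start of Mmp13, at -44 from the second start of Mmp12, at -46 in Mmp3 and at -63 in Mmp10. Searched from 250 bases before to 50 after each start, 8.97% of 27025 genes held it, and of the 27 family genes with a promoter sequence these 4 did. The motif was not found in that window of Mmp8, and its part in the levels of these genes was not tested. A match of letters is a description of the sequence and not of a bound site.

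Among the 6 genes called lower, Adamtsl2 fell farthest. Adamtsl2, a protease-free glycoprotein that binds fibrillin microfibrils, was at 0.159, 0.290 and 0.376 CPM (5, 12 and 16 counts) in NF-YAcKO and at 14.8, 7.40 and 8.52 CPM in NF-YAfl/fl. Every NF-YAcKO library was far below every NF-YAfl/fl library, and the log2 fold change was -5.17 ± 0.42 (FDR = 0.000385). The family gene nearest to Adamtsl2 on chromosome 2, Adamts13, which cuts von Willebrand factor, was not called (log2 fold change -0.51 ± 0.19, FDR = 0.075). Adamts20, a versican-cutting protease best known for melanoblast survival, was at 1.85, 2.0 and 2.14 CPM in NF-YAcKO and 19.0, 17.6 and 26.6 in NF-YAfl/fl. The levels within each genotype lay close together, and the log2 fold change was -3.39 ± 0.21 (FDR = 0.000139). Mmp15, a membrane-type protease, was at 8.61, 10.8 and 12.9 CPM in NF-YAcKO and 62.7, 50.3 and 75.8 in NF-YAfl/fl. It was lower in every NF-YAcKO library by a log2 fold change of -2.55 ± 0.21 (FDR = 0.000393). For Adamts20 and Mmp15, NF-YAfl/fl replicate 3 was the highest of its genotype, unlike for most of the 40 genes.

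Adamtsl5, which like Adamtsl2 belongs to the fibrillin-binding group, was at 4.97, 4.30 and 5.69 CPM in NF-YAcKO and at 25.9, 19.4 and 14.7 in NF-YAfl/fl. The genotypes did not overlap, with a log2 fold change of -2.0 ± 0.24 (FDR = 0.00142). Adamts5, the main aggrecanase of mouse cartilage and a versicanase, was at 17.0, 10.4 and 13.5 CPM in NF-YAcKO and 58.2, 44.8 and 37.8 in NF-YAfl/fl. It was lower in all NF-YAcKO libraries, by a log2 fold change of -1.79 ± 0.23 (FDR = 0.00181). Adamts1, the neighbour of Adamts5 on chromosome 16 and also a versicanase, was at 71.5, 67.2 and 68.2 CPM in NF-YAcKO and 148, 89.9 and 64.0 in NF-YAfl/fl. Unlike Adamts5 it overlapped (log2 fold change -0.55 ± 0.28, FDR = 0.17), with only NF-YAfl/fl replicate 3 below the NF-YAcKO libraries. Mmp11 (stromelysin 3), known for its activation inside the cell by furin, was at 10.7, 10.2 and 10.5 CPM in NF-YAcKO and 35.3, 22.6 and 29.1 in NF-YAfl/fl. The NF-YAcKO levels were nearly equal and all lower, with a log2 fold change of -1.48 ± 0.17 (FDR = 0.00139). Mmp11 shares 155 exonic bases with Chchd10 on the other strand. The calls of Adamts5, Adamtsl5 and Mmp11 were lost without NF-YAcKO replicate 2 (FDR 0.0104 to 0.0118), and that of Adamts5 also without NF-YAcKO replicate 3 (FDR = 0.0115).

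Markers of terminal muscle differentiation were lower in the same libraries. All 11 tested (of 12 listed), among them Myog, Myh3 and Acta1, were called lower, and their summed TPM was 52.7 to 135 in NF-YAcKO and 5583 to 8998 in NF-YAfl/fl. Pericyte markers had 1 gene called lower (Abcc9) of 7 tested, with a summed TPM of 53.0 to 71.7 in NF-YAcKO and 58.2 to 188 in NF-YAfl/fl. The part of differentiating cells or pericytes in the 6 genes was not tested. SC markers showed no common direction: 1 of 8 tested was called lower (Cdh15) and none higher, with 3 above and 3 below without overlap. The defining marker Pax7 (171 against 88.7 CPM) and Myod1, which marks activated SCs (567 against 601 CPM), were present in both genotypes. Pax7 was above in every NF-YAcKO library (FDR = 0.00624), but its log2 fold change of 0.94 ± 0.17 did not reach the fold threshold. Myod1 overlapped (-0.08 ± 0.49, FDR = 0.91).

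No Timp gene was called. Timp2, which blocks Mmp2 and with Mmp14 also helps to activate it, was at 189, 176 and 175 CPM in NF-YAcKO and 316, 411 and 262 in NF-YAfl/fl. It was lower in every NF-YAcKO library with FDR = 0.00732, but its log2 fold change of -0.87 ± 0.17 did not reach the fold threshold. Without NF-YAfl/fl replicate 3 it was called, at -1.02 (FDR = 0.000868). Timp1 was at 588, 442 and 455 CPM in NF-YAcKO and 276, 387 and 98.8 in NF-YAfl/fl. Although the genotypes did not overlap, the log2 fold change of 0.96 ± 0.44 did not pass the test (FDR = 0.13). Timp3, which binds to the matrix and also blocks Adamts proteases, was at 424, 234 and 292 CPM in NF-YAcKO and 336, 222 and 101 in NF-YAfl/fl. Its levels overlapped (log2 fold change 0.53 ± 0.42, FDR = 0.36), and 1733 of its exonic bases are shared with Syn3 on the other strand. Timp4 was under the filter, with 1, 0 and 2 counts in NF-YAcKO and 10, 6 and 12 in NF-YAfl/fl.

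The membrane-type protease Mmp14, the activator of Mmp2, was at 372, 301 and 352 CPM in NF-YAcKO and 217, 282 and 134 in NF-YAfl/fl. The libraries did not overlap, and the log2 fold change was 0.70 ± 0.26 (FDR = 0.070). Mmp2, the gelatinase of connective tissue cells, was at 76.1, 74.0 and 69.8 CPM in NF-YAcKO and 52.1, 59.9 and 21.5 in NF-YAfl/fl. It showed the same separation (log2 fold change 0.72 ± 0.34, FDR = 0.14), with NF-YAfl/fl replicate 3 far below the others. Markers of fibro-adipogenic progenitors, connective tissue cells of muscle in which many of these genes are known to be active, were low in that same library. Of 9 such markers 1 was called higher (Lum) and none lower, and their summed TPM was 121, 92.7 and 127 in NF-YAcKO and 165, 277 and 41.4 in NF-YAfl/fl. The summed TPM of the 40 genes was 1439, 940 and 1100 in NF-YAcKO and 938, 1370 and 404 in NF-YAfl/fl. NF-YAfl/fl replicate 3 was thus the lowest and replicate 2 the highest of the genotype for both sums. The summed TPM of macrophage, pericyte and endothelial markers had the same order in NF-YAfl/fl, so it is not particular to fibro-adipogenic markers. The part of fibro-adipogenic progenitors in these levels was not tested. Schwann cell markers had 5 of 8 genes called higher and 1 lower (Erbb3, at 2.14 to 2.84 against 33.9 to 42.1 TPM), and the summed TPM was 28.1 to 34.6 against 45.8 to 56.3 with Erbb3 and 25.6 to 31.7 against 7.93 to 22.4 without it. Of 6 endothelial markers tested 1 was called higher (Kdr, summed TPM of the list 3.93 to 4.93 against 1.15 to 3.62).

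**Figure D4:**
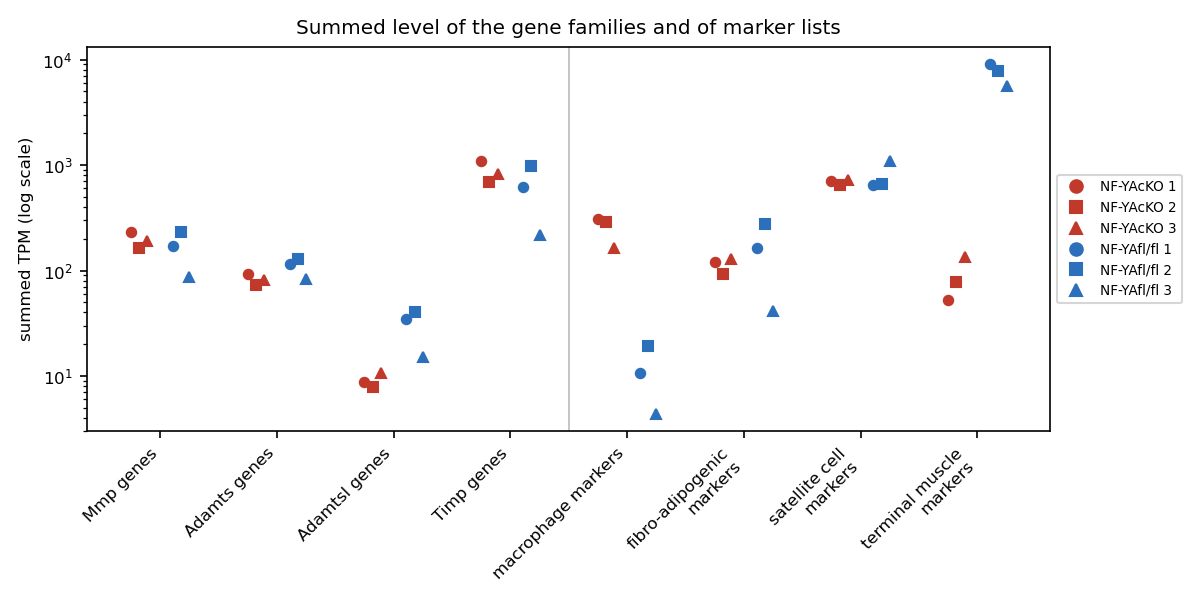
Summed TPM (log axis) of the Mmp, Adamts, Adamtsl and Timp genes (left of the line) and of 4 marker lists (right) in each library, with colors and shapes as in the other plots. Macrophage markers are above and terminal muscle markers below in all 3 NF-YAcKO libraries, and NF-YAfl/fl replicate 3 (blue triangle) is the lowest of its genotype in every family sum, in macrophage, fibro-adipogenic and terminal muscle markers, and the highest in SC markers.

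The remaining members were not called. Besides Mmp10 and Mmp13, 4 had a log2 fold change below -1 with FDR between 0.01 and 0.05. These were Mmp28 (-1.14 ± 0.26, FDR = 0.0136), Adamtsl3 (-1.18 ± 0.32, FDR = 0.0262), Adamtsl4 (-1.51 ± 0.35, FDR = 0.0154) and Adamts15 (-1.71 ± 0.51, FDR = 0.0354), the last from 5 to 25 counts per library. All 4 were lower in every NF-YAcKO library. With Adamtsl1 (-0.78 ± 0.34, FDR = 0.11), all 5 Adamtsl genes had fold changes below 0, 4 of them without overlap. Over all 17348 genes tested, 8850 had a fold change below 0, and 26.2% were lower without overlap. Mmp28 (epilysin) shares 466 exonic bases with 1700020L24Rik on the other strand. Mmp19 (-0.59 ± 0.18, FDR = 0.039), Adamts13 and Adamts17 (-1.65 ± 0.57, FDR = 0.060, at most 25 counts) were also lower without overlap, and Mmp19 shares 789 exonic bases with Tmem198b.

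The procollagen N-propeptidases Adamts2, Adamts3 and Adamts14, which trim fibrillar procollagens, had log2 fold changes of -0.63 to 0.39 and overlapped. Adamts14 was at 99.8 to 120 CPM in NF-YAcKO and at 59.7, 43.1 and 191 in NF-YAfl/fl, where replicate 3 lay above all other libraries. Without that replicate its log2 fold change was 1.09 (FDR = 0.00179), and with it 0.17 ± 0.52 (FDR = 0.82). The other hyalectanases, Adamts4 (-0.24 ± 0.12) and Adamts9 (0.33 ± 0.38), overlapped with FDR of 0.14 and 0.52. So did Adamts6, Adamts7, Adamts10 and Adamts12, with log2 fold changes of -0.45 to 0.25, the membrane-type genes Mmp16, Mmp17 and Mmp24 (-0.55 to 0.37), and Mmp23 (0.13 ± 0.45). Mmp16 was called lower without NF-YAfl/fl replicate 3 (-1.03, FDR = 0.00713).

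Of the 40 genes, 26 had several transcripts in the files and 14 had 1. Over the 19 of the 26 with at least 50 counts in every library, a single transcript differed in its share of the gene's TPM by more than 10 percentage points between the closest libraries of both genotypes, a limit chosen after the values were seen. This was the Adamts20 transcript NM_001164785.1 (6980 nt), which held 36.3%, 37.4% and 34.8% in NF-YAcKO and 8.85%, 7.60% and 12.7% in NF-YAfl/fl. The share was higher in NF-YAcKO while the transcript's own count was lower (36.8 to 57.9 against 68.9 to 153). Another Adamts20 transcript, NM_177431.4 (6119 nt), had 0 counts in NF-YAcKO and 55.6 to 111 in NF-YAfl/fl. These counts are estimates of how reads split between 8 transcripts, and no test was made.

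NF-Y binds the CCAAT box, so that sequence was searched on both strands of the same promoter window. It was found in 6 of the 27 members with a promoter sequence (22.2%), against 41.1% of the 27025 genes. The 6 were Adamts17, Adamts20, Mmp8, Mmp14, Timp1 and Timp2, of which Mmp8 has it from base 25 of its transcript. The stretches before the start are shown for 4 of them with the box in capitals (ATTGG where it lies on the other strand), read 5′ to 3′ on the strand of the gene from RefSeq (GRCm38.p6).
Adamts20, minus strand, chr15:94404409-94404453: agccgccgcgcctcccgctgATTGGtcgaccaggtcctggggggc
Mmp14, plus strand, chr14:54431509-54431597: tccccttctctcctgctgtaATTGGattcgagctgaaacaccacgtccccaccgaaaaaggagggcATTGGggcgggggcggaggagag
Timp1, plus strand, chrX:20869956-20870000: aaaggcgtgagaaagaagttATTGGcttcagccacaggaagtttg
Timp2, minus strand, chr11:118355549-118355593: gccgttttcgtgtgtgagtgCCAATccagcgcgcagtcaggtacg
Counted from the start site, the box begins at -83 in Adamts20, at -69 and -23 in Mmp14, at -190 in Timp1 and at -162 in Timp2. Of these 4 genes only Adamts20 was called, and its window lies at a start inside the gene. For 13 members, among them the called genes Adamts5, Adamts8 and Mmp9, no promoter sequence was used here. No match says only that these letters are not in the window.

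Other genes of the pathway were described by count, from lists chosen with earlier results of these data known. For comparison, 4.65% of all genes tested were called higher and 7.67% lower. Without overlap, 29.1% of all genes were above and 26.2% below. Of 16 tested activators, inhibitors and receptors, 1 was called higher and none lower. This was Plaur, the urokinase receptor that gathers plasmin activity at the cell surface, at 117 ± 8.49 CPM in NF-YAcKO and 44.8 ± 15.5 in NF-YAfl/fl (SD, n = 3, log2 fold change 1.38 ± 0.25, FDR = 0.00646). The list's median log2 fold change was 0.28, and 7 genes were above and 4 below without overlap. Among those short of the fold threshold, Pcsk6, a proprotein convertase, was at 31.9 against 21.8 CPM (0.55 ± 0.11, FDR = 0.0083), while Furin, a convertase that activates several of these proteases, was at 121 against 155 CPM (-0.36 ± 0.10, FDR = 0.0313). The serpin Serpinf1 was at 870 against 601 CPM (0.53 ± 0.10, FDR = 0.0079) and the cysteine protease inhibitor Cst3 at 63.1 against 98.9 CPM (-0.65 ± 0.10, FDR = 0.00326). Of 15 tested protein substrates other than collagens, 3 were called lower and none higher, with a list median of -0.74. They were the basement membrane proteoglycan Hspg2 (-1.23 ± 0.21, FDR = 0.00531), Vwf (-1.42 ± 0.21, FDR = 0.00286) and Bcan (-1.88 ± 0.32, FDR = 0.00504, under 1 CPM). Vcan, the versican that several Adamts proteases cut, was at 275 against 459 CPM and overlapped (-0.74 ± 0.41, FDR = 0.19). Of 15 tested Adam and procollagen-processing relatives, 1 was called higher and none lower. Adam8, a membrane protease known from leukocytes, was at 17.2 against 3.87 CPM (2.15 ± 0.41, FDR = 0.00715), and the median of that list was -0.0032.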

How the data were processed

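RNA-seq libraries were prepared by the authors with the TruSeq Stranded Total RNA protocol, aligned with Bowtie2 to mm10 transcripts and counted by RSEM. Expected counts were deposited without normalization and can be fractional, because RSEM divides reads shared between transcripts. The deposited TPM values are corrected by the authors' software for effective length, and the deposited isoform percent gives each transcript's share of its gene's TPM. Effective length, from the deposited files, was not used in any result. Expected counts were rounded, and 17348 of 35976 genes, those above 10 counts in 2 or more of the 6 libraries, were tested together for an effect of genotype with the quasi-likelihood test of edgeR 4.0.16 (TMM, FDR by Benjamini-Hochberg) in R 4.3.3. The SE is the log2 fold change divided by the square root of F. Libraries with the same replicate number come from different mice, and p-values measure only the spread between these libraries, which may be technical in part. Genes given in every library are the called members, the Timp genes and the 5 members with the highest mean TPM in either genotype, to which the chromosome 9 neighbours and Adamts14 were added after their values were seen. Members, lists and tests were chosen with earlier results of these data known. Alternatives were DESeq2 1.42.0 and its size factors, edgeR's filterByExpr, no filter, limma 3.58.1 on log2(TPM + 1) and log2(TPM + 0.1), unrounded counts, an FDR under 0.05, glmTreat, the replicate block, each library left out and, added after seeing the data, a filter before rounding. Coordinates and promoter sequences are from RefSeq (GRCm38.p6), exon overlaps from GENCODE M21. Intervals cover counting error only. Plots were drawn with matplotlib 3.10.9.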

Additional observations from a re-analysis of the deposited data

How the results depend on the processing

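Over the 6 fits that leave out 1 library, 1 to 6 members were called higher (1 without NF-YAcKO replicate 1 or 2 or NF-YAfl/fl replicate 1, 2 without NF-YAcKO replicate 3, 6 without NF-YAfl/fl replicate 3) and 3 to 11 lower (3 without NF-YAcKO replicate 2, 11 without NF-YAfl/fl replicate 3). Over all genes these fits called 177 to 890 higher and 523 to 1684 lower. glmTreat, which tests for a log2 fold change past 1, called 1 member higher and 3 lower (97 and 510 over all genes), and an FDR under 0.05 called 10 members and 2025 genes lower. Limma called 231 genes higher and 704 lower on log2(TPM + 1), and 361 higher on log2(TPM + 0.1). DESeq2 called 6 members higher, Mmp10 and Mmp13 among them, and 9 lower (986 and 1804 over all genes). The causes of these shifts were not tested. Mmp8, Adamts20, Adamtsl2 and Mmp15 were called in all 17 alternatives, and Mmp10 in 5 and Mmp13 in 4 of them.

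Whether the replicate numbers of the labels pair the libraries could not be settled with 3 libraries per genotype. Deviations of same-numbered libraries correlated at 0.17, -0.069 and 0.053, and those of differently numbered libraries at -0.14 to 0.099. With the replicate block 6 members were called higher and 6 lower (625 and 947 over all genes), and Mmp10 (FDR = 0.00885) and Mmp13 (FDR = 0.00849) were added.

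No called member changed sign. The log2 fold change of 9 uncalled members did when single libraries were left out. It ranged from -0.33 to 0.31 for Adamts10, -0.90 to 0.046 for Adamts12, -0.20 to 1.09 for Adamts14, -0.43 to 0.22 for Adamts6, -0.15 to 0.53 for Adamts9, -1.03 to 0.032 for Mmp16, -0.27 to 0.50 for Mmp23, -0.28 to 0.13 for Mmp24 and -0.24 to 0.77 for Mmp3. Adamts10 was also at 0.040 with the replicate block, and Mmp24 at 0.019 with no filter.

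Levels near 3 counts (0.0705 to 0.115 CPM), as for Mmp8 in NF-YAfl/fl, set limits by depth. The spread between libraries limits the other comparisons.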
